A study of Mus musculus with 10 samples.

Results

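The genes described here are 10 genes of protein folding and of the stress responses that raise it: Hspa5, Hsp90b1, Pdia4, Xbp1 and Ddit3, which belong to the endoplasmic reticulum (ER) and its stress pathway, and Hspa8, Hsp90aa1, Hsph1, Dnajb1 and Hspb1, which belong to the cytosol and nucleus. They were taken by symbol from the platform annotation, with 1 transcript cluster (the array's unit for a gene) per gene, the one with the highest mean over the 10 arrays, and they are 10 of 19938 genes measured in that way. RNA came from both hippocampi of 5 Tg(Dyrk1a) mice and of 5 littermates that were wild type, 1 array per mouse. All mice were males of 16 weeks, and the arrays of a genotype are biological replicates per the labels. Tg(Dyrk1a) mice are transgenic for a bacterial artificial chromosome that adds a copy of Dyrk1a, a dual-specificity kinase gene, and wild-type mice lack it. The labels give the strain as C57BL/6N and the study's methods as C57BL/6J. The question was whether the extra Dyrk1a went with a shift in the chaperone transcripts of the hippocampus, and how these transcripts varied together from mouse to mouse.

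Chaperones hold unfolded proteins, release them to fold and hand failed ones to degradation. In the ER, misfolded protein draws the Hsp70 chaperone BiP away from its sensors, which starts the unfolded protein response: IRE1 splices Xbp1 mRNA, ATF6 is cleaved into a transcription factor, and PERK slows translation and, through ATF4, induces Ddit3. In the cytosol, misfolded protein frees the transcription factor HSF1, which binds heat shock elements and raises the Hsp70, Hsp90, Hsp110, Hsp40 and small heat shock proteins. Neurons are known for high resting levels of Hspa8 and Hsp90 and for a weak induction of the stress forms, while glia and vessels carry more of the small heat shock proteins.

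The promoters of 4 genes are given to show where elements named for these pathways occur, and the activity of the pathways was not measured. Each line is the 250 bases upstream of the start site, 5′ to 3′ on the gene's strand, from RefSeq on GRCm38.p6, and 8 of the 10 genes had a promoter there. Hspa8 and Hsp90aa1 are named only. Capitals mark matches, on either strand, to the ER stress element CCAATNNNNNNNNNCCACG (in Hspa5 and Hsp90b1) or to paired heat shock units, GAANNTTC or TTCNNGAA (in Hspb1). Xbp1, which of the 10 genes covaried most closely with Hspa5, has no exact match in these 250 bases, and bases beyond them were not searched. Hspa5 lies at chr2:34771840-34772089 (plus strand), Hsp90b1 at chr10:86705445-86705694 (minus strand), Xbp1 at chr11:5520391-5520640 (plus strand) and Hspb1 at chr5:135887669-135887918 (plus strand).
Hspa5: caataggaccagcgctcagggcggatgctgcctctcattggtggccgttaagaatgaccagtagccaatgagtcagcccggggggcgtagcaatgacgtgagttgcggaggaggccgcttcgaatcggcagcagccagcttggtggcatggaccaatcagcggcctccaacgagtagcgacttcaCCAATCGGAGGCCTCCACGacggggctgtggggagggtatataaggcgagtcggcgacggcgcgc
Hsp90b1: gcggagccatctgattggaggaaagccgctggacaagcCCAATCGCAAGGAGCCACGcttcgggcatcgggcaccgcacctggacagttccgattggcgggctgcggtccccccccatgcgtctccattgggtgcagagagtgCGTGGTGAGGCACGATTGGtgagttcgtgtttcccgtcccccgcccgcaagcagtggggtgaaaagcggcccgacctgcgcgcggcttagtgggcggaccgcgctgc
Xbp1: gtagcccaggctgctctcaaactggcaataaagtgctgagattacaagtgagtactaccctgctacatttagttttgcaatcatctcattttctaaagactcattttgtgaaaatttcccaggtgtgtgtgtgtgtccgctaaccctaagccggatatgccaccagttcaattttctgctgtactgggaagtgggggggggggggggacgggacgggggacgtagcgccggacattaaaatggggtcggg
Hspb1: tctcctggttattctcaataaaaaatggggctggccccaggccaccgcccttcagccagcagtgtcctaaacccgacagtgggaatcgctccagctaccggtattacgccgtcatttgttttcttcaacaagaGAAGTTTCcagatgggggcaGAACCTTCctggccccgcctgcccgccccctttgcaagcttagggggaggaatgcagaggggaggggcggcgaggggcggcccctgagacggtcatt

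The ER stress element was present in 2 of the 8 promoters, against 0.113% of 32851 mouse promoters of that length. In Hspa5 it ran from 65 to 47 bases before the start. In Hsp90b1 there were copies from 212 to 194 bases before the start on the gene's strand and from 107 to 89 bases on the other strand. The paired heat shock unit was found in 2 of the 8, Hspb1 (from 117 to 110 and from 97 to 90 bases before the start) and Hsph1 (from 33 to 26 bases), against 12.8% of all promoters. The Hsph1 window (chr5:149636337-149636586, minus strand) overlaps the gene as given below, which reaches 149636498. That match therefore lies within the gene's coordinates. The triple unit (GAANNTTCNNGAA or TTCNNGAANNTTC), present in 0.466% of promoters, was in 0 of the 8. Dnajb1, Pdia4 and Ddit3 had none of these letters in the window, and a match is a description of the letters and not of a bound site. Dnajb1 and Hsph1 had 2 promoters each there, and only the more upstream was searched.

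The arrays were alike as a whole: median log2 values ran between 6.57 and 6.66, and any pair correlated at 0.994 to 0.998 over the rows. Dyrk1a (transcript cluster 10437136) was 11.65, 11.62, 11.67, 11.65 and 11.68 in Tg(Dyrk1a) mice, against 11.28, 11.15, 11.14, 11.19 and 11.15 in wild-type mice, so that every array bore out its label (log2 fold change 0.47 ± 0.03 (SE), limma adjusted p = 0.000138, exact permutation p = 0.00794, the smallest that 5 against 5 allow). The hippocampal markers Prox1, Wfs1, Neurod6 and Grik4 had medians of 9.99, 10.55, 10.04 and 9.99, each brighter than 89.0% of rows or more. Neighbouring tissue varied between dissections: Ttr, which encodes transthyretin and marks the choroid plexus, spanned 38.6-fold over the mice, and the mean centred level of 16 choroid plexus markers exceeded 0.5 in 3 mice, Tg(Dyrk1a) replicate 2 (1.10), Tg(Dyrk1a) replicate 4 (0.80) and wild-type replicate 5 (1.05). In a bulk tissue, more cells of a type and more RNA per cell cannot be told apart.

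None of the 10 chaperone and stress genes differed between Tg(Dyrk1a) and wild-type hippocampi beyond the spread between mice. By limma's adjusted p, 0 of 10 passed 0.05, against 0.00854% of the 23410 annotated transcript clusters. At an unadjusted p under 0.05 the count was again 0 of 10, against 4.93%, and by FCROS, the rank method of the study, 0 of 10, against 4.83%. For no gene were the genotypes free of overlap, which held for 0.807% of transcript clusters. The fold changes lay between -0.08 (Hspa5 and Hspb1) and 0.00 (Ddit3 and Hsp90aa1) on the log2 scale, with a median of -0.02, and 8 of 10 were below 0, against 49.1% of transcript clusters.

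**Figure D1:**
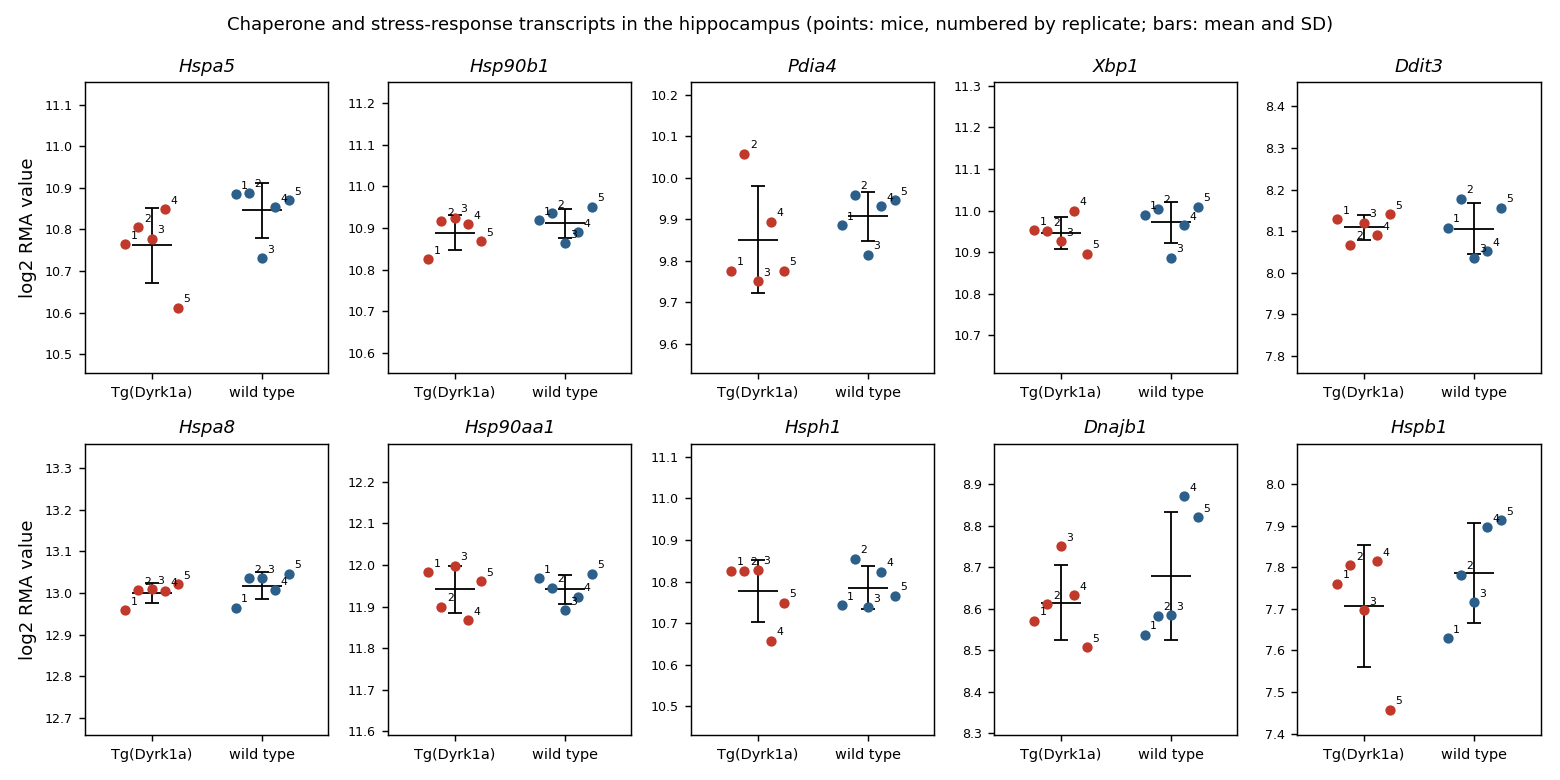
Log2 RMA values (vertical axes, all spanning the same number of log2 units) of the 10 genes in Tg(Dyrk1a) and wild-type mice (horizontal axis); points are mice with their replicate numbers, and bars show the mean with its SD (n = 5). The genotypes overlap in every panel, and Hspa5, Hspb1 and Dnajb1 spread more widely than Hspa8 and Hsp90b1.

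Hspa5 encodes BiP, the Hsp70 of the ER and its main stress sensor partner (chromosome 2, 34772090 to 34776529, GRCm38.p6; transcript cluster 10471586). Its log2 value was 10.76, 10.81, 10.78, 10.85 and 10.61 in Tg(Dyrk1a) mice, against 10.89, 10.89, 10.73, 10.85 and 10.87 in wild-type mice. The lowest value belonged to Tg(Dyrk1a) replicate 5 and the next to wild-type replicate 3, and the other wild-type mice lay at or above the highest Tg(Dyrk1a) mouse. The means were 10.76 ± 0.09 in Tg(Dyrk1a) and 10.85 ± 0.07 in wild-type mice (SD, n = 5 each), a log2 fold change of -0.08 ± 0.05 (SE). This was 0.944-fold with a 95% interval of 0.879 to 1.01, 4 of 5 Tg(Dyrk1a) mice were below the wild-type mean, and the test was not passed (limma adjusted p = 0.947, exact permutation p = 0.119). Without Tg(Dyrk1a) replicate 5 the log2 fold change was -0.046.

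Hsp90b1 encodes GRP94, the Hsp90 of the ER, which folds integrins and Toll-like receptors (chromosome 10, 86690841 to 86705444). Its log2 value (10371482) was 10.82, 10.92, 10.92, 10.91 and 10.87 in Tg(Dyrk1a) mice, against 10.92, 10.93, 10.86, 10.89 and 10.95 in wild-type mice. The genotypes were interleaved, with Tg(Dyrk1a) replicate 1 lowest, and the log2 fold change was -0.02 ± 0.03 (SE, limma adjusted p = 0.969). Pdia4 encodes ERp72, a protein disulfide isomerase that makes and reshuffles disulfide bonds (chromosome 6, 47796141 to 47813512). Its log2 value (10544525) was 9.78, 10.06, 9.75, 9.89 and 9.78 in Tg(Dyrk1a) mice, against 9.89, 9.96, 9.82, 9.93 and 9.95 in wild-type mice. Tg(Dyrk1a) replicate 2 was the highest of all mice, while Tg(Dyrk1a) replicates 1, 3 and 5 were the lowest, so that the SD was 0.13 in Tg(Dyrk1a) and 0.06 in wild-type mice. The log2 fold change was -0.06 ± 0.06 (SE, limma adjusted p = 0.963). It was -0.11 without Tg(Dyrk1a) replicate 2, -0.031 without Tg(Dyrk1a) replicate 3, -0.13 without the 3 mice rich in choroid plexus markers and -0.022 with the mean of its transcript clusters.

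The stress pathway of the ER was followed at 2 of its transcription factors. Xbp1, whose mRNA is spliced by IRE1 to encode an activator of folding and degradation genes (chromosome 11, 5520641 to 5525993), was 10.95, 10.95, 10.93, 11.00 and 10.90 in Tg(Dyrk1a) mice, against 10.99, 11.01, 10.89, 10.97 and 11.01 in wild-type mice on the log2 scale (10374035). As for Hspa5, Tg(Dyrk1a) replicate 5 and wild-type replicate 3 were the lowest, and the log2 fold change was -0.03 ± 0.03 (SE, limma adjusted p = 0.969). The transcript cluster sums spliced and unspliced forms, so the level does not report splicing. Ddit3, which encodes CHOP, a factor of the later, death-promoting arm (chromosome 10, 127290793 to 127296291), was 8.13, 8.07, 8.12, 8.09 and 8.14 in Tg(Dyrk1a) mice, against 8.11, 8.18, 8.04, 8.05 and 8.16 in wild-type mice (10366881). It was the steadiest of the 10 genes for its level: 6.86% of transcript clusters within 0.5 log2 units of its mean had a smaller SD over the 10 mice. Its log2 fold change was 0.00 ± 0.04 (SE, limma adjusted p = 0.997).

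Among the cytosolic genes, Hspa8 and Hsp90aa1 had the smallest spread over the mice. Hspa8, the resting Hsp70 that also uncoats clathrin vesicles (chromosome 9, 40801276 to 40805202; 10528021), was 12.96, 13.01, 13.01, 13.00 and 13.02 in Tg(Dyrk1a) mice, against 12.96, 13.04, 13.04, 13.01 and 13.05 in wild-type mice. Replicate 1 of each genotype was lowest, and the SD over the 10 mice was 0.0289, against a median of 0.0706 over all annotated transcript clusters. Hsp90aa1, the stress-inducible cytosolic Hsp90 that matures kinases and receptors (chromosome 12, 110691036 to 110696395; 10378848), was 11.98, 11.90, 12.00, 11.87 and 11.96 in Tg(Dyrk1a) mice, against 11.97, 11.95, 11.89, 11.92 and 11.98 in wild-type mice. The wild-type values lay within the Tg(Dyrk1a) range, and the log2 fold changes were -0.02 ± 0.03 (SE) for Hspa8 and 0.00 ± 0.03 (SE) for Hsp90aa1 (limma adjusted p = 0.976 and 1.00). The direction for Hsp90aa1 turned to -0.012 when the mean of its transcript clusters was used and to -0.0055 under quantile normalization.

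Hsph1, an Hsp110 that exchanges the nucleotide of Hsp70 (chromosome 5, 149616843 to 149636498; 10535904), was 10.83, 10.83, 10.83, 10.66 and 10.75 in Tg(Dyrk1a) mice, against 10.74, 10.86, 10.74, 10.82 and 10.77 in wild-type mice. Tg(Dyrk1a) replicate 4 was the lowest of all, the other mice were mixed, and the log2 fold change was -0.01 ± 0.04 (SE, limma adjusted p = 0.991), which turned to 0.0074 under median centring. Dnajb1, the Hsp40 that delivers clients to Hsp70 and a sensitive target of HSF1 (chromosome 8, 83608175 to 83612653; 10573198), was 8.57, 8.61, 8.75, 8.63 and 8.51 in Tg(Dyrk1a) mice, against 8.54, 8.58, 8.58, 8.87 and 8.82 in wild-type mice. Wild-type replicates 4 and 5 stood above all other mice and the remaining wild-type mice among the lower Tg(Dyrk1a) mice. The log2 fold change was -0.06 ± 0.07 (SE, limma adjusted p = 0.966), with an SD of 0.09 in Tg(Dyrk1a) and 0.15 in wild-type mice. It was -0.017 without wild-type replicate 4 and -0.029 without wild-type replicate 5.

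Hspb1 encodes Hsp25, the mouse form of the small heat shock protein that holds unfolded proteins without ATP (chromosome 5, 135887919 to 135889563; 10408928). Its log2 value was 7.76, 7.80, 7.70, 7.81 and 7.46 in Tg(Dyrk1a) mice, against 7.63, 7.78, 7.72, 7.90 and 7.91 in wild-type mice. Tg(Dyrk1a) replicate 5 was the lowest, well below the next mouse, and it was also the lowest for Hspa5 and Dnajb1. The log2 fold change was -0.08 ± 0.07 (SE), 0.946-fold with a 95% interval of 0.848 to 1.05 (limma adjusted p = 0.954). Without that mouse the value was -0.018.

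**Figure D2:**
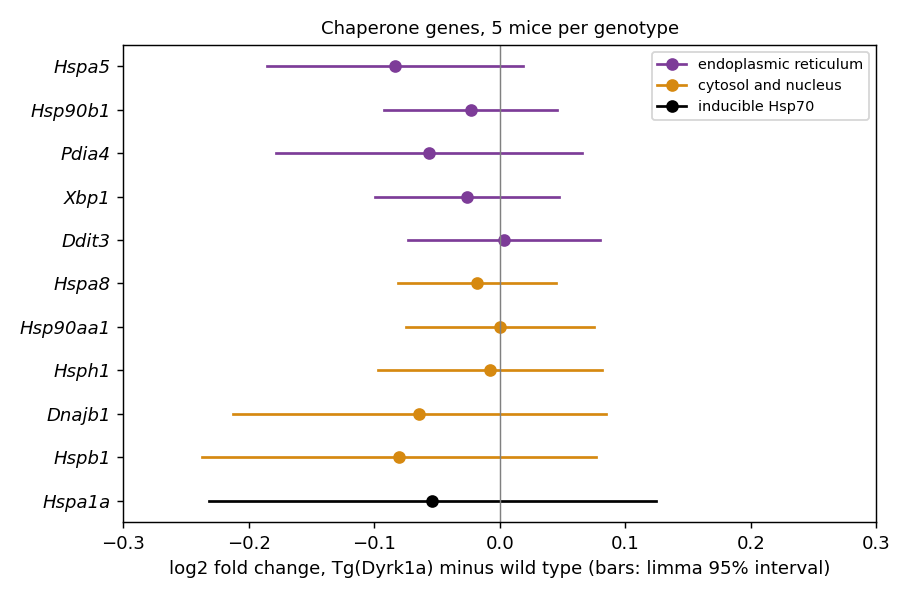
Log2 fold change of Tg(Dyrk1a) minus wild type (horizontal axis; points are limma estimates, bars their 95% intervals, 5 mice per genotype) for the 10 genes and the inducible Hsp70 gene Hspa1a (rows), coloured by compartment. Every interval drawn includes 0, and the intervals of Hspb1, Dnajb1 and Hspa1a are wider than those of Hspa8 and Hsp90b1. The cluster shared by Hspa1a and Hspa1b, with an unadjusted limma interval of -0.21 to -0.02, is not drawn.

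For 4 of the 10 genes the platform held further transcript clusters. The other single-symbol clusters of Hspa8 (10368025 and 10584572) followed the one used at r = 0.967 and 0.836 over the 10 mice, those of Hsp90aa1 (10402615 and 10490946) at 0.950 and 0.725, and that of Hspb1 (10526410) at 0.975. Clusters that share a symbol can read different loci, near-identical copies included, so which locus each reads is uncertain, and the brightest was used by rule. The coordinates printed with each gene are those of the named gene, whichever locus its cluster reads. The other cluster of Pdia4 (10544538) was dim, with a mean of 5.61, and its r was -0.27.

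The strictly inducible Hsp70 is the usual sign of an acute heat shock response. Hspa1a (10450369) was 7.88, 8.13, 7.96, 8.39 and 7.91 in Tg(Dyrk1a) mice, against 8.05, 8.18, 8.06, 8.10 and 8.16 in wild-type mice. Tg(Dyrk1a) replicate 4 was highest and the other mice overlapped, with a log2 fold change of -0.05 ± 0.08 (SE, limma adjusted p = 0.973). A brighter cluster (10450367) is annotated to both Hspa1a and its neighbour Hspa1b and so names neither. It was 9.21, 9.16, 9.16, 9.34 and 9.11 in Tg(Dyrk1a) mice, against 9.28, 9.35, 9.29, 9.33 and 9.29 in wild-type mice, with 4 of 5 Tg(Dyrk1a) mice below every wild-type mouse. Its log2 fold change of -0.11 ± 0.04 (SE) did not pass the adjusted test (unadjusted limma p = 0.0183, adjusted p = 0.947, exact permutation p = 0.0397) and was past the FCROS limit.

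The rest of the folding machinery was described by 5 lists that held none of the 10 genes. The cluster shared by Hspa1a and Hspa1b was not counted in these lists. Of their 98 measured genes, 64 had fold changes above 0 and 34 below, 4 were higher and 0 lower at an unadjusted p under 0.05 (against 2.99% and 1.94% of transcript clusters), and 0 passed limma's adjusted threshold. FCROS placed 4 of the 98 past its limit, all on the higher side (Hspb8, Ero1a, Dnajc10 and Nupr1), against 4.83% of transcript clusters in either direction. The heat shock list (24 of 29 genes measured, 13 above 0, median log2 fold change 0.01) held 1 of the 4 at an unadjusted limma p under 0.05. This was Hspb8, a small heat shock protein of chaperone-assisted autophagy. Hspb8 was 8.20, 8.59, 8.34, 8.52 and 8.41 in Tg(Dyrk1a) mice, against 8.20, 8.22, 8.07, 8.22 and 8.28 in wild-type mice. Tg(Dyrk1a) replicate 1 lay within the wild-type range and the other Tg(Dyrk1a) mice above it (0.21 ± 0.07 (SE), limma adjusted p = 0.947). The next in that list were Fkbp4, an Hsp90 co-chaperone (-0.06 ± 0.03), and Serpinh1, the collagen chaperone of the ER (0.09 ± 0.06).

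The list of ER folding and ER-associated degradation (30 of 30 measured, 18 above 0, median 0.01) held 2 of the 4 at an unadjusted limma p under 0.05, Ero1a and Hspa13. Ero1a, the oxidase that recharges disulfide isomerases, was at 9.33 ± 0.02 in Tg(Dyrk1a) and 9.24 ± 0.07 in wild-type mice (SD, n = 5 each), and Hspa13, an Hsp70-like protein of microsomes, at 8.86 ± 0.03 in Tg(Dyrk1a) and 8.77 ± 0.08 in wild-type mice. Both had a log2 fold change of 0.09 ± 0.04 (SE) and an adjusted p of 0.947 by limma. Dnajc10, an ER reductase, followed at 0.09 ± 0.05. In the list of unfolded protein response sensors and transcription factors (20 of 22 measured, 14 above 0, median 0.02), Nupr1, a stress-induced chromatin protein, was at 7.50 ± 0.06 in Tg(Dyrk1a) and 7.37 ± 0.07 in wild-type mice (0.13 ± 0.04 (SE), limma adjusted p = 0.947). Atf6b, an ATF6 paralogue, stood at 0.06 ± 0.03 and Ddit4, an inhibitor of mTORC1, at -0.11 ± 0.06.

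The chaperonin CCT and its partner prefoldin, which fold actin and tubulin, had 9 of 13 genes above 0 and a median of 0.02, led by Cct5 (0.05 ± 0.04), Pfdn6 (0.05 ± 0.05) and Cct3 (0.06 ± 0.05). The mitochondrial chaperones and proteases had 10 of 11 above 0 and a median of 0.04, led by Lonp1 (0.08 ± 0.04), Clpp (0.05 ± 0.03) and Htra2 (0.09 ± 0.06). In both lists 0 genes had an unadjusted p under 0.05. Hspd1 and Hspe1, which encode the mitochondrial chaperonin, were placed in the heat shock list instead (-0.009 and 0.008). So was Tcp1, a CCT subunit (-0.003). The median over all annotated transcript clusters was 0.00, and no list was tested as a set.

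Some markers of other cell types and of neuronal activity differed between the genotypes at an unadjusted threshold, and 0 of them passed the adjusted one. Over all annotated transcript clusters, 2.99% were higher and 1.94% lower at an unadjusted p under 0.05, and 49.1% had fold changes below 0. The mean centred level of 16 endothelial and mural markers was 0.016 to 0.099 in Tg(Dyrk1a) mice and -0.18 to 0.010 in wild-type mice (unadjusted exact permutation p = 0.00794). Of these genes, 6 of 16 were higher and 0 lower at an unadjusted p under 0.05. Of 15 meninges and fibroblast markers, 5 were higher and 0 lower at that threshold. Of 19 immediate early genes, which follow recent neuronal firing, 18 had fold changes below 0, 5 were lower and 1 higher at that threshold, and Fos was at -0.09 ± 0.05 (SE). Of 10 thalamus and habenula markers, 9 had fold changes below 0 (median -0.12), with 1 lower and 1 higher at that threshold, and their mean centred level was -0.083 to -0.011 in Tg(Dyrk1a) mice and -0.12 to 0.45 in wild-type mice. Of 11 hippocampal neuron markers, 9 had fold changes above 0 and 2 were higher at that threshold. Their part in the genotype values of the chaperone genes was not tested.

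Across mice, the ER genes had a higher median correlation with each other than the cytosolic genes had. Over the 10 mice the median Pearson r was 0.57 for the 10 pairs of ER genes, 0.19 for the 10 pairs of cytosolic genes and 0.16 for the 25 pairs between them, beside 0.02 for all pairs of 19938 genes. The difference between these medians was not tested, and all pairs share the same 10 arrays. Of all 45 pairs, 34 were above 0, with a median of 0.22, which was 0.49 under median centring, where the median over all gene pairs was 0.15. Within the ER set, the 6 pairs among Hspa5, Hsp90b1, Pdia4 and Xbp1 lay between 0.56 and 0.88, and the r of Ddit3 over the 10 mice was 0.09 to Hspa5, -0.10 to Pdia4, 0.31 to Hsp90b1 and 0.41 to Xbp1. The pooled values of Ddit3 hid opposite directions: it ran against each of these 4 genes among the 5 Tg(Dyrk1a) mice and with each of them among the 5 wild-type mice. The same held for Hsp90aa1 and these 4 genes. With 5 mice to a genotype no correlation is given within it, and the difference between genotypes was not tested.

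**Figure D3:**
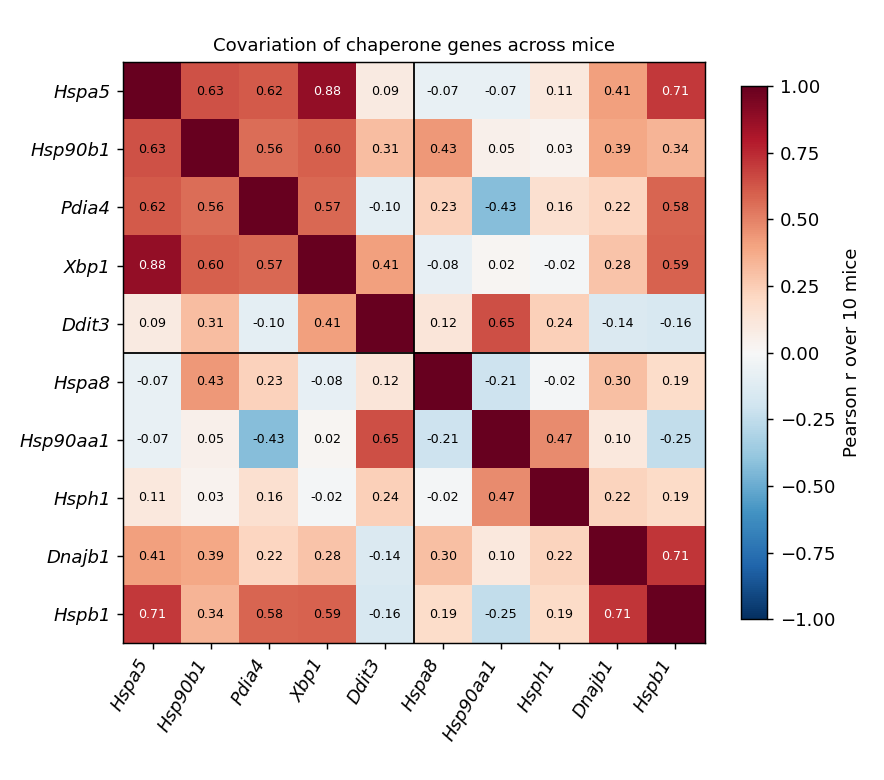
Pearson r over 10 mice for each pair of the 10 genes (colour and number; rows and columns are genes, black lines separate ER from cytosolic genes). The 6 pairs among Hspa5, Hsp90b1, Pdia4 and Xbp1 are all at or above 0.56, and over all 10 mice Hsp90aa1 is near 0 or below with these genes.

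Hspa5 and Xbp1 were the 1 pair of 45 whose correlation passed adjustment over the pairs (r = 0.881, permutation p = 0.00039, adjusted p = 0.0175), beside 0.194% of all gene pairs at or past that size of r. Spearman's rho was 0.867 (permutation p = 0.00243, adjusted p = 0.109). Without Tg(Dyrk1a) replicate 5 and wild-type replicate 3, the mice farthest from the median of Hspa5, r was 0.86, and with each value taken as the deviation from its genotype mean it was 0.883. Among 19937 genes, Xbp1 ranked 3 by r with Hspa5, and Hspa5 ranked 7 by r with Xbp1. Over the other settings r stayed between 0.837 and 0.941 but the adjusted p ranged up to 0.410, and it was over 0.05 in 7 of 17. It was 0.0576 without Tg(Dyrk1a) replicate 2, 0.0607 without Tg(Dyrk1a) replicate 3 and 0.0517 without wild-type replicate 2.

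Other pairs did not pass the adjustment. Dnajb1 and Hspb1, both targets of HSF1, had r = 0.714 (permutation p = 0.0189, adjusted p = 0.367; rho = 0.770, permutation p = 0.0123, adjusted p = 0.276), and r was 0.46 without wild-type replicates 4 and 5, the mice farthest on Dnajb1. Hspa5 and Hspb1 had r = 0.71 (permutation p = 0.0260, adjusted p = 0.367) and rho = 0.455 (permutation p = 0.191, adjusted p = 0.575). Its r was 0.16 without Tg(Dyrk1a) replicate 5 and wild-type replicate 3 and so rested on them. Ddit3 and Hsp90aa1 had r = 0.647 (permutation p = 0.0463; rho = 0.588, permutation p = 0.0807), and Hspa5 and Hsp90b1 had r = 0.635 (permutation p = 0.0473; rho = 0.733, permutation p = 0.0208), with an adjusted p of 0.367 for both r. In all, 5 pairs had an unadjusted permutation p under 0.05, a count that was 2 without wild-type replicate 5, 3 without Tg(Dyrk1a) replicate 5 or without wild-type replicate 4, and 10 under median centring. The lowest r was -0.43, between Pdia4 and Hsp90aa1.

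The same mice recurred at the ends of the range. Tg(Dyrk1a) replicate 5 was among the 2 lowest mice for 5 of the 10 genes. Wild-type replicate 3 was among the 2 lowest for 6, while wild-type replicates 2 and 5 were each among the 2 highest for 6, so that mice of 1 genotype stood at opposite ends. Spread differed between genes of like brightness: Dnajb1, Hspb1, Pdia4 and Hspa5 had an SD over the 10 mice of 0.124, 0.133, 0.0984 and 0.0864, above that of 88.2%, 88.1%, 84.9% and 84.0% of transcript clusters within 0.5 log2 units of their mean. Hsp90b1 and Xbp1, at 0.0384 and 0.0442, were above only 13.9% and 22.4%.

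Related lists gave a range of covariation. The median pair r was 0.38 for the mitochondrial list, 0.24 for ER folding and degradation, 0.16 for CCT and prefoldin, 0.14 for the heat shock list and 0.02 for the unfolded protein response regulators. The genes outside the 10 that lay closest to the mean centred level of the ER genes over the 10 mice were Golgb1, which encodes the Golgi tether giantin (r = 0.921), Kcnq3, a subunit of the M-current channel (0.872), and Uggt1, the glucosyltransferase that checks glycoprotein folding in the ER (0.867). For the cytosolic genes they were 4632415L05Rik (0.891), Tmem229a (0.862) and Cfap36 (0.860). These were picked as the highest of all genes and have no test.

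Relations to the tissue and activity markers were computed for the 10 genes and 4 marker levels, 40 in all, and 0 passed adjustment. Of the 10 genes, Dnajb1 had the highest correlation with the immediate early genes (r = 0.703, permutation p = 0.0219, adjusted p = 0.437; rho = 0.612, permutation p = 0.0663, adjusted p = 0.663). Its r was also 0.703 without Tg(Dyrk1a) replicate 2 and wild-type replicate 4, which kept wild-type replicate 5 in, and 0.701 on deviations from the genotype means. Wild-type replicates 4 and 5, the highest for Dnajb1, were the highest for the immediate early genes too. The relation was not computed without both of them, so it may rest on them. On the choroid plexus markers 3 mice stood apart, so no r over all 10 mice is given and that relation was read among the other 7. The smallest unadjusted p of all 40 relations, by rank over the 10 mice, was that of Pdia4 with these markers (permutation p = 0.00295, adjusted p = 0.118). The next by rank was that of Hspb1 with the same markers (permutation p = 0.0123, adjusted p = 0.245). Among the other 7 mice, Pdia4 had r = 0.61 (exact permutation p = 0.160, adjusted p = 0.652; rho = 0.786, exact permutation p = 0.0480, adjusted p = 0.24). Among the same 7 mice, Hsp90aa1 had r = -0.62 (exact permutation p = 0.196, adjusted p = 0.652; rho = -0.893, exact permutation p = 0.0123, adjusted p = 0.123), and 0 of the 10 genes passed adjustment over these 10 relations. With the choroid plexus level regressed out of all genes, the r of Hspa5 and Xbp1 over the 10 mice was 0.867 (adjusted p = 0.0315).

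**Figure D4:**
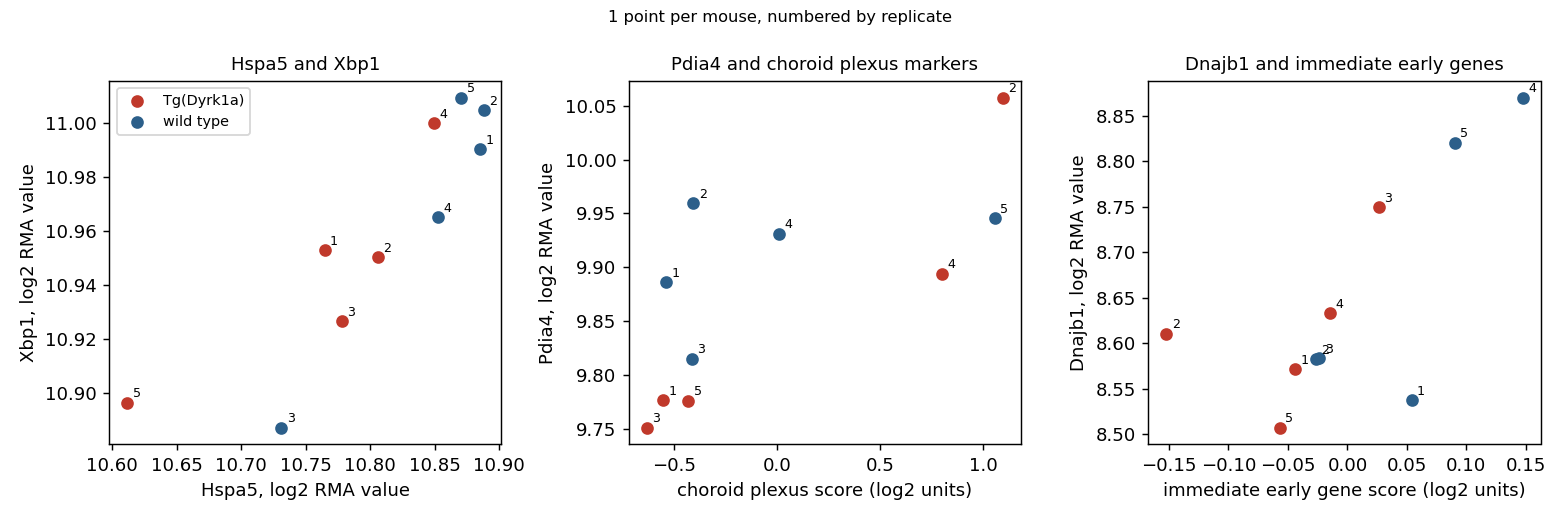
Log2 RMA values of Xbp1 against Hspa5 (left), Pdia4 against the mean centred level of the choroid plexus markers (middle) and Dnajb1 against that of the immediate early genes (right), in log2 units, 1 point per mouse with its replicate number. Hspa5 and Xbp1 are lowest together in Tg(Dyrk1a) replicate 5 and wild-type replicate 3, Tg(Dyrk1a) replicate 2 is highest for Pdia4 and for the choroid plexus markers, and wild-type replicates 4 and 5 are highest for Dnajb1 and for the immediate early genes.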

How the data were processed

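Hippocampal RNA was hybridised to Affymetrix mouse gene arrays, and the authors deposited log2 values made with RMA (the robust multi-array average), which corrects background, equalises arrays and summarises probes, and which compresses fold changes of dim transcripts. Which arrays were normalized together is not given in the sources used here. Of 35556 rows, 23410 were annotated, 21789 with 1 symbol and 1621 with several (tested, not named), and 12146 had none. The number of arrays limits precision.

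The main test was limma (version 3.58.1, R 4.3.3), Benjamini-Hochberg over all annotated clusters, beside two-sided exact permutation tests. FCROS was rewritten from its description (25% of ranks trimmed at each end, outer 0.025 counted). Correlations used 100000 resamples, adjusted over 45 pairs or 40 relations. Scripts were tested on simulated data. Whether replicate numbers pair the mice is not stated by the labels, and the main test did not use them. Members and lists were chosen with earlier results of these data known, and the choroid plexus reading among 7 mice was added after seeing the values. Named are the 10 genes, Dyrk1a, Hspa1a, Hspa1b, Ttr, Fos, the 3 smallest p of each list of related genes and the 3 genes closest to each set, with the shared Hspa1a and Hspa1b cluster. The hippocampal markers Prox1, Wfs1, Neurod6 and Grik4 are named as a check of the tissue, and Hspd1, Hspe1 and Tcp1 for the list they were placed in.

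Alternatives were quantile normalization, median centring, all rows, no dim clusters (lowest 30%), variance trend with robust estimation, array weights, replicate block, the mean of a gene's clusters, deviations from genotype means, Spearman's rho, residuals from the choroid plexus level, leaving out the 3 arrays rich in it, and leaving out each array.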

Additional observations from a re-analysis of the deposited data

Results flagged for a closer look

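Dixon's test for a lone high or low mouse was run on 72 groups of 5, and 4 were past its limit of 0.71, where chance alone gives about 1 in 20 groups. Of these, 2 were among the 10 genes. Hspa5 in wild-type replicate 3 was 10.73, below the other wild-type mice at 10.85 to 10.89. Hspa8 in Tg(Dyrk1a) replicate 1 was 12.96, below the other Tg(Dyrk1a) mice at 13.00 to 13.02. Lonp1 in wild-type replicate 3 was 7.75, below the others at 7.87 to 7.90, and Cfap36 in Tg(Dyrk1a) replicate 3 was 8.88, above the others at 8.77 to 8.79.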

How the results depend on the processing

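The count of 0 called chaperone genes held in all 21 alternatives, where the smallest adjusted p by limma was 0.751. Of 200 fold changes of these genes under alternatives, 183 kept their direction and 17 reversed, 12 of them with an array left out. All concerned values near 0: Hsp90aa1 (-0.012 with the mean of its clusters, -0.0055 under quantile normalization, -0.014 to 0.019 with an array left out), Hsph1 (0.0074 under median centring, 0.011 without the 3 choroid plexus-rich arrays, -0.021 to 0.022 with an array left out) and Ddit3 (-0.011 under quantile normalization, -0.014 to 0.021 with an array left out). The cause was not tested.

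Over all clusters, the count of 2 calls was 1 when all rows were tested, under median centring, with the replicate block, with robust estimation and a variance trend, and without the 3 choroid plexus-rich arrays, 5 with array weights, 1131 by FCROS, and 1 to 2 with an array left out. Arrays with the same replicate number correlated between genotypes at r = -0.285 to 0.276 on deviations from genotype means. This cannot exclude pairs by litter or processing.

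The 1 correlated pair, Hspa5 and Xbp1, was lost under median centring (0 pairs, adjusted p = 0.132), on deviations from genotype means (0 pairs, 0.0844), with the replicate block (0 pairs, 0.410) and by Spearman's rho (0 pairs, 0.109), and leaving out an array gave 0 to 1. The 4 related genes at an unadjusted p under 0.05 were 2 to 6 with an array left out, 2 without wild-type replicate 3. The median pair r was 0.14 to 0.49 over settings. With an array left out, log2 fold changes lay at -0.11 to -0.046 for Hspa5, -0.035 to -0.0071 for Hsp90b1, -0.11 to -0.031 for Pdia4, -0.047 to -0.014 for Xbp1, -0.031 to -0.0076 for Hspa8, -0.10 to -0.017 for Dnajb1 and -0.12 to -0.018 for Hspb1. With 5 mice per genotype, the 95% intervals for Hspa5 (0.879 to 1.01-fold) and Hspb1 (0.848 to 1.05-fold) give the precision that these arrays allowed.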
